A study of Mus musculus with 24 samples.

Results

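Il10, the gene of the cytokine interleukin 10, and Il10ra and Il10rb, the genes of the chains that form its receptor, were followed through the first hours of the lipopolysaccharide (LPS) response of mouse macrophages. The 3 genes were found by their symbols among the 24273 genes of the deposited expression table, each with 1 row, and all 3 were among the 13901 genes that passed the filter on low values. That filter kept a gene whose linear value, 2 to the power of its deposited log2 value, reached 5 in at least 3 libraries.

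The cells were bone marrow-derived macrophages (BMDMs) of C57BL/6 mice, grown for a week in medium conditioned by L cells, a source of the macrophage growth factor CSF1. All mice carried LysM-Cre, a Cre recombinase placed at the lysozyme locus Lyz2 and so expressed in myeloid cells. Control cells are called LysM-Cre. The study's text gives them a floxed copy of Fos beside a normal one (Fos FL/+), whereas the series' design text names only the Cre. FosKO cells were Fos fl/fl LysM-Cre, so that Cre would delete both copies of Fos, the gene of the AP-1 transcription factor subunit c-FOS. Cells were left untreated (0 h) or received LPS, which bacteria carry and TLR4 senses, for 0.5, 1 or 2 h at a dose of 100 ng/ml, which gave 8 groups of 3 libraries (24 in all). The study's methods call the libraries biological replicates. Whether the 3 of a group came from different mice is not stated in the sources used here, so the errors and p-values below measure the spread between these libraries.

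IL-10 is made by macrophages a short time after Toll-like receptors are engaged, and it limits the inflammatory response of the same cells and their neighbours. It binds the high-affinity chain encoded by Il10ra, which then engages the chain encoded by Il10rb, a chain that receptors for IL-22 and the lambda interferons also use. The kinases JAK1 and TYK2 on these chains activate the transcription factor STAT3, which induces SOCS3 and other genes and lowers the output of many cytokine genes.

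On the GRCm38 build (mm10, GENCODE annotation) Il10 (ENSMUSG00000016529) is a protein-coding gene at chr1:131019845-131024974 on the plus strand, with 1310 bases of exon. Il10ra (ENSMUSG00000032089) lies at chr9:45253837-45269149 on the minus strand and has 3498 bases of exon. A processed pseudogene, Gm20612, lies within it on the opposite strand. Il10rb (ENSMUSG00000022969) lies at chr16:91406164-91425834 on the plus strand and has 3808 bases of exon. The annotation also holds Gm21970, a locus on the same strand that runs from within Ifnar2, a neighbouring interferon receptor gene, into Il10rb. Reads in shared exons could be given to either, so the Il10rb values are uncertain to that extent.

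The labels were examined before the genotypes were compared. Fos itself was higher in the FosKO-labelled libraries at 3 of the 4 times, by 1.49, 1.64 and 3.29 on the log2 scale before LPS and after 1 and 2 h, and lower after 0.5 h (-0.77). Its group means at 0, 0.5, 1 and 2 h were 11.11, 13.52, 11.15 and 9.52 in LysM-Cre, and 12.60, 12.75, 12.78 and 12.80 under the FosKO label. A single value for the gene mixes its deleted and remaining parts, so the label could not be checked with it, and each direction between genotypes given here rests on what the labels say. Fosl1 and Fosl2, genes of the same family, had lower means under the FosKO label at each of the 4 times. At 1 h they stood at 4.31 and 10.66 there, and at 5.95 and 11.20 in LysM-Cre. An exchange of labels was not tested. Lyz2, the Cre locus, was higher in the FosKO-labelled libraries by 4.89 to 5.17 at the 4 times. The genotypes thus differed in RNA from the Cre locus as well as in Fos. The part of either in the differences below was not tested, and the 2 cannot be told apart here. Of the 10 macrophage markers examined all were in the tested set, and their summed level lay between 17.28 and 17.57 in LysM-Cre libraries and between 17.26 and 17.66 in FosKO-labelled libraries. Single markers differed in both directions: 4 were called higher and 5 lower under the FosKO label at 0 h (19.5% and 15.9% of all tested genes), and 5 higher and 1 lower at 2 h (24.4% and 20.3%), where Mertk differed by 1.65, Fcgr1 by 0.73 and Lyz1 by -0.65. The content of 18S ribosomal RNA separated 5 libraries from the other 19. At 0.5 h these were replicate 3 of LysM-Cre and replicate 1 of FosKO, and at 1 h replicates 2 and 3 of LysM-Cre and replicate 1 of FosKO. Genotype differences within the 18S sets are given at those times for each member. At 0.5 h the high set holds 2 libraries of each genotype and the low set 1 of each. At 1 h the high set holds 2 FosKO and 1 LysM-Cre libraries, and the low set 1 and 2.

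Per length, the ligand lay below its receptor chain Il10ra at 0 and 2 h in both genotypes. The log2 level per kilobase of exon of Il10 minus that of Il10ra was -4.28 ± 0.21 (SD, n = 3) in LysM-Cre at 0 h and -3.27 ± 0.06 at 2 h. In the FosKO-labelled libraries this difference of levels was -4.65 ± 0.11 at 0 h and -5.26 ± 0.22 at 2 h. The ligand thus stood nearer to its receptor chain after 2 h of LPS than before in LysM-Cre and further from it in the FosKO-labelled libraries. Il10ra minus Il10rb, on the same scale per kilobase, was -0.71 ± 0.05 at 0 h and 0.42 ± 0.01 at 2 h in LysM-Cre, and -0.73 ± 0.04 and 0.66 ± 0.02 in the FosKO-labelled libraries, so the order of the chains turned over with LPS in both genotypes.

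**Figure D1:**
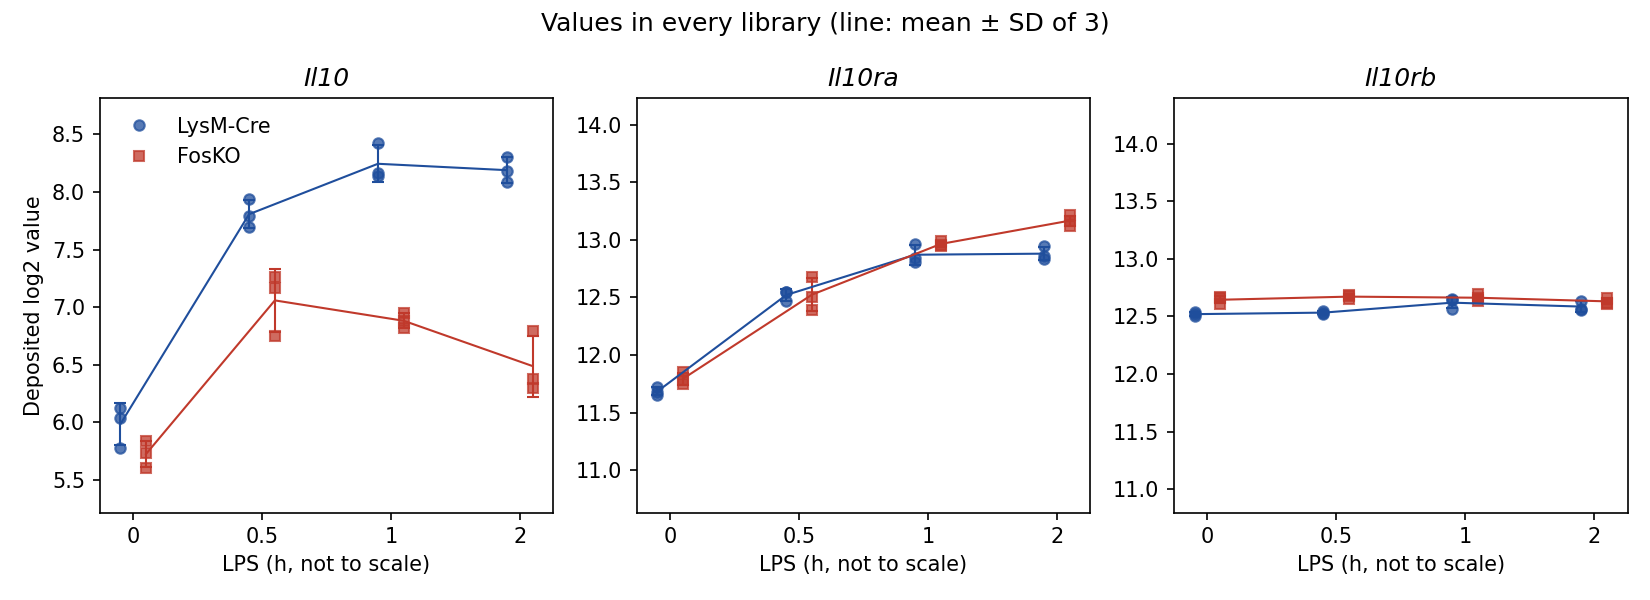
Deposited log2 value of each gene (vertical axes, all spanning the same number of log2 units) against LPS time in h (horizontal axis, not to scale), with 1 point for each library, circles for LysM-Cre, squares for FosKO-labelled libraries, and lines and bars for the mean ± SD of 3 libraries. Il10 separates the genotypes from 0.5 h on, Il10ra climbs in both, and Il10rb stays between 12.50 and 12.69.

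Il10 was induced by LPS within 0.5 h in both genotypes, and from then on its level was lower in the FosKO-labelled libraries. In LysM-Cre its log2 value was 5.78, 6.13 and 6.04 in the 3 libraries without LPS, 7.70, 7.79 and 7.93 after 0.5 h, 8.17, 8.14 and 8.43 after 1 h, and 8.08, 8.18 and 8.31 after 2 h. In the FosKO-labelled libraries it was 5.60, 5.84 and 5.73 without LPS, 7.17, 6.75 and 7.26 after 0.5 h, 6.95, 6.82 and 6.88 after 1 h, and 6.38, 6.30 and 6.79 after 2 h. Before LPS the genotypes overlapped, and at each later time every LysM-Cre library lay above every library labelled FosKO.

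The gap widened with time. The FosKO-labelled libraries differed from LysM-Cre in Il10 by -0.26 (SE 0.13) at 0 h, which was not called (limma adjusted p 0.152, Benjamini-Hochberg over all tested genes; genes with an adjusted p under 0.05 were called). The difference was -0.75 at 0.5 h (limma adjusted p 0.000137), -1.36 at 1 h (limma adjusted p 1.39e-07) and -1.70 at 2 h (limma adjusted p 3.76e-09), the last a level 0.31 of that in LysM-Cre on the linear scale. Such calls were frequent among all genes: the share called in either direction was 35.4%, 40.9%, 33.9% and 44.6% at the 4 times in turn. The share of all tested genes whose 3 libraries did not overlap between genotypes was 44.5%, 50.8%, 45% and 54%. The size of the Il10 difference was less frequent, since 232 of the tested genes were further below zero at 0.5 h, 36 at 1 h and 20 at 2 h. Within the 18S sets, with 1 or 2 libraries per genotype in each, the difference was -0.74 (high) and -0.77 (low) at 0.5 h, and -1.32 and -1.33 at 1 h.

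The time course of Il10 took another shape in each genotype. In LysM-Cre the rise over 0 h was 1.82, 2.26 and 2.21 after 0.5, 1 and 2 h (limma adjusted p at most 3.04e-09), in comparisons that share their 0 h libraries. Among all tested genes 7.24%, 35.8% and 60.8% were called at those times. In the FosKO-labelled libraries it was 1.33, 1.16 and 0.76 (limma adjusted p at most 4.77e-05), beside 5.92%, 32.6% and 62.1% of all genes called. At 0.5 h, few genes rose further than Il10 in either genotype, with 41 above it in LysM-Cre and 54 in the FosKO-labelled libraries. By 2 h these numbers were 189 and 1145.

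Between consecutive times Il10 went on rising in LysM-Cre from 0.5 to 1 h by 0.44 (limma adjusted p 0.0188, 26.8% of all genes called). This call was lost without LysM-Cre replicate 1 or 2 at 0.5 h (0.38 and 0.43) or replicate 3 at 1 h (0.35), with limma adjusted p from 0.0532 to 0.107, and in the high 18S libraries alone (0.43, limma adjusted p 0.228). From 1 to 2 h it differed by -0.06 in LysM-Cre (limma adjusted p 0.761, 52.3% of all genes called). In the FosKO-labelled libraries the step from 0.5 to 1 h was -0.18 (limma adjusted p 0.377, 27.5% of all genes called), and Il10 fell by 0.39 from 1 to 2 h (limma adjusted p 0.0193, 50.7% of all genes called). The latter call was lost without FosKO replicate 1 at 1 h (-0.36) or replicate 1 or 2 at 2 h (-0.34 and -0.30), with limma adjusted p from 0.0623 to 0.105, and in the high 18S libraries alone (-0.36, limma adjusted p 0.0714).

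Over the whole interval from 0.5 to 2 h, a comparison added after the values had been seen, Il10 rose by 0.38 in LysM-Cre (limma adjusted p 0.0194, 59.2% of all genes called) and fell by 0.57 in the FosKO-labelled libraries (limma adjusted p 0.00106, 59.4% called). All libraries are in the high 18S set at 2 h and some are not at 0.5 h. In the high set alone both steps were called. The LysM-Cre rise was 0.33 without replicate 1 at 0.5 h and 0.32 without replicate 3 at 2 h, where it was not called (limma adjusted p 0.076 and 0.0796). The steps differed between genotypes by -0.95 (SE 0.19, limma adjusted p 0.00134), as did those of 19.1% of all genes. Over the shorter interval from 0.5 to 1 h the difference between genotypes was -0.61 and was not called (limma adjusted p 0.17, 1.06% of all genes called), although it was without FosKO replicate 2 at 0.5 h (-0.77, limma adjusted p 0.0407).

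The difference between the genotypes in how far LPS changed each gene was tested directly as an interaction. For Il10 the response in the FosKO-labelled libraries minus that in LysM-Cre was -0.49 (SE 0.19) at 0.5 h, which was not called (limma adjusted p 0.727). It was -1.11 at 1 h (limma adjusted p 0.00222) and -1.44 at 2 h (limma adjusted p 2.14e-05). Of all tested genes 0.115%, 1.22% and 15% were called in these comparisons, and 20 genes at 1 h and 11 at 2 h lay further below zero. With the high 18S libraries alone, which leave 1 LysM-Cre library at 1 h, the value at that time was -1.06 and was not called (limma adjusted p 0.0821).

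Ranked by their means, the Il10 levels ran from LysM-Cre at 1 h and 2 h, which overlapped, through LysM-Cre at 0.5 h, FosKO at 0.5 h and 1 h, which also overlapped, and FosKO at 2 h, to LysM-Cre and FosKO at 0 h, which overlapped as well. All stimulated groups were above both untreated groups. The SD of Il10 within a group ran from 0.07 to 0.27 and was highest in the FosKO-labelled libraries at 0.5 h and 2 h.

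**Figure D2:**
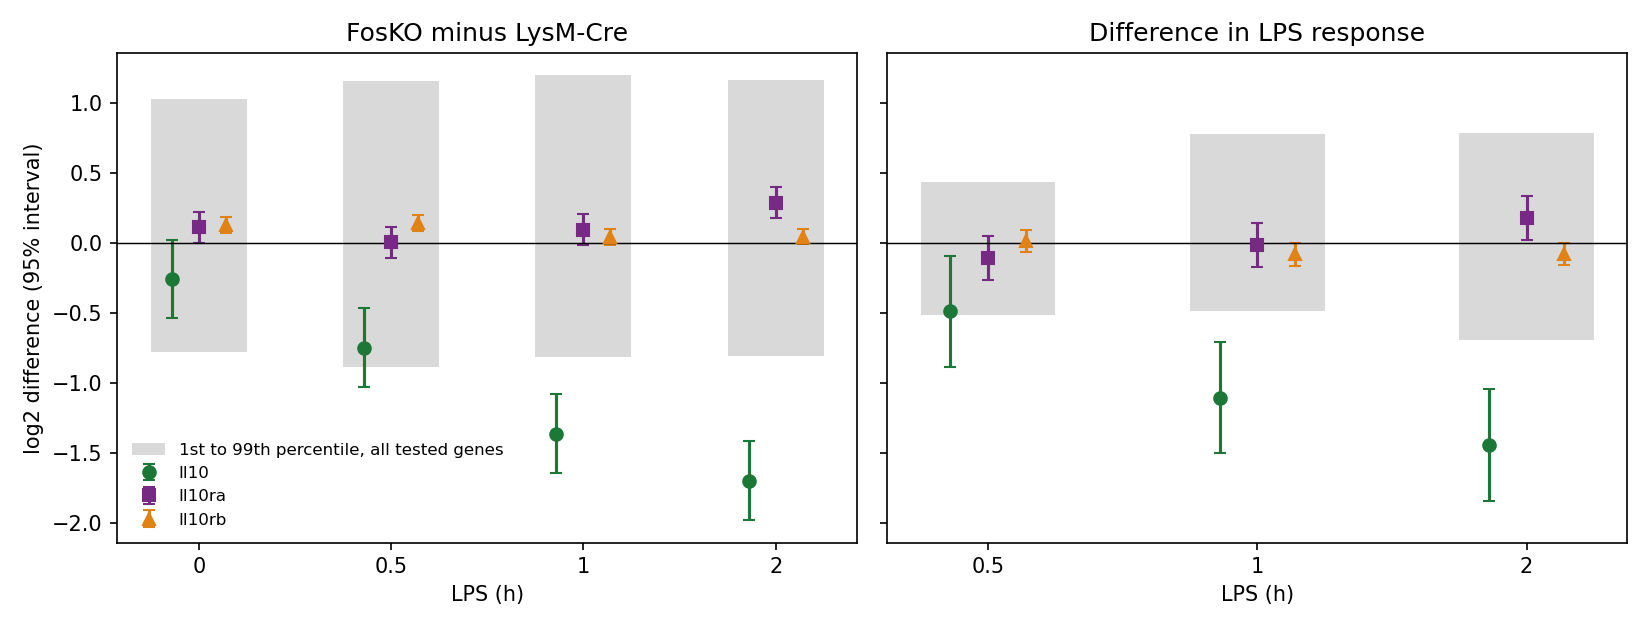
Left, the log2 difference of the FosKO-labelled libraries from LysM-Cre at each LPS time. Right, the LPS response in FosKO-labelled libraries minus that in LysM-Cre. Points are limma estimates with 95% intervals for Il10, Il10ra and Il10rb, and grey boxes run from the 1st to the 99th percentile of all tested genes. Il10 lies below the box at 1 and 2 h in both panels, and the receptor chains lie inside it at every time.

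Il10ra, the chain that binds IL-10, was induced by LPS in both genotypes, and at 2 h it was higher in the FosKO-labelled libraries. In LysM-Cre its log2 value was 11.72, 11.68 and 11.65 without LPS, 12.46, 12.55 and 12.55 after 0.5 h, 12.80, 12.84 and 12.97 after 1 h, and 12.84, 12.86 and 12.94 after 2 h. In the FosKO-labelled libraries it was 11.75, 11.78 and 11.85 without LPS, 12.50, 12.39 and 12.68 after 0.5 h, 12.95, 12.95 and 12.99 after 1 h, and 13.16, 13.12 and 13.21 after 2 h. The genotypes overlapped at 0.5 and 1 h, whereas at 0 h they were separated by a gap of 0.03 and at 2 h by one of 0.18, with the FosKO-labelled libraries on the higher side.

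The rise of Il10ra over 0 h in LysM-Cre was 0.84, 1.19 and 1.20 at 0.5, 1 and 2 h, and in the FosKO-labelled libraries it was 0.73, 1.17 and 1.37 (limma adjusted p at most 3.13e-09 for the 6 values). The rise at 2 h was a 2.29-fold one in LysM-Cre and a 2.59-fold one in the FosKO-labelled libraries. From 1 to 2 h Il10ra differed by 0.01 in LysM-Cre (limma adjusted p 0.903) and rose by 0.20 in the FosKO-labelled libraries (limma adjusted p 0.00339), a step that was -0.03 and not called after quantile normalisation (limma adjusted p 0.597).

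Between the genotypes Il10ra differed by 0.11 (SE 0.05) at 0 h, 0.00 at 0.5 h and 0.09 at 1 h, none of them called (limma adjusted p 0.121, 0.974 and 0.196). With a replicate block the one at 0 h was called (0.11, limma adjusted p 0.0497). Their 95% intervals ran from -0.11 to 0.22 over the 3 times. At 2 h it was higher by 0.29 in the FosKO-labelled libraries (limma adjusted p 0.000183), a change smaller than that of 2003 tested genes on the same side. After quantile normalisation that difference was 0.09 and was not called (limma adjusted p 0.12). Within the 18S sets, with 1 or 2 libraries per genotype in each, the values were 0.03 (high) and -0.04 (low) at 0.5 h, and 0.17 and 0.05 at 1 h. None of the 3 interaction values was called for Il10ra (-0.11, -0.02 and 0.18, limma adjusted p 0.807, 0.993 and 0.137), and at an unadjusted p under 0.05 the one at 2 h alone passed. From 0.5 to 2 h, in the comparison added afterwards, Il10ra rose by 0.36 in LysM-Cre and by 0.64 in the FosKO-labelled libraries (limma adjusted p at most 6.91e-06), and the steps differed by 0.28 (limma adjusted p 0.0119). This difference was not called after quantile normalisation (0.17, limma adjusted p 0.0713) or in the high 18S libraries alone (0.26, limma adjusted p 0.0573).

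Il10rb, the shared chain, varied little in comparison. Over the 24 libraries its log2 value ran from 12.50 to 12.69, a 1.14-fold range, against 7.08-fold for Il10 and 2.95-fold for Il10ra. In LysM-Cre it was 12.50, 12.54 and 12.52 without LPS, 12.53, 12.52 and 12.55 after 0.5 h, 12.56, 12.65 and 12.64 after 1 h, and 12.55, 12.57 and 12.64 after 2 h. In the FosKO-labelled libraries it was 12.61, 12.67 and 12.66 without LPS, 12.69, 12.65 and 12.68 after 0.5 h, 12.69, 12.66 and 12.64 after 1 h, and 12.62, 12.61 and 12.66 after 2 h. The genotypes did not overlap at 0 and 0.5 h, with the FosKO-labelled libraries higher, and overlapped at 1 and 2 h.

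The libraries of a group lay close together in Il10rb (SD 0.01 to 0.05), and some of its small differences passed the test. It differed between the genotypes by 0.12 at 0 h (limma adjusted p 0.00108) and 0.14 at 0.5 h (limma adjusted p 0.000315), and by 0.04 at 1 h and 0.05 at 2 h, which were not called (limma adjusted p 0.247 and 0.191). Within the 18S sets, with 1 or 2 libraries per genotype in each, these values were 0.14 in both at 0.5 h, and 0.09 (high) and 0.04 (low) at 1 h. In LysM-Cre it was higher than at 0 h by 0.10 at 1 h and 0.07 at 2 h (limma adjusted p 0.00637 and 0.0422). With only the high 18S libraries the rise at 1 h was no longer called (0.04, limma adjusted p 0.504), nor was that at 2 h without replicate 1 or 3 at 0 h (0.06 and 0.07) or replicate 3 at 2 h (0.04), with limma adjusted p from 0.0841 to 0.242. None of the LPS comparisons in the FosKO-labelled libraries was called (0.03, 0.02 and -0.01, limma adjusted p at least 0.631). The sizes of these values did not hold across scalings, and the signs of some did not. The genotype differences at 0 and 0.5 h stayed above zero under every alternative (0.05 to 0.13 and 0.06 to 0.15). After quantile normalisation the genotype differences at 0 and 0.5 h were 0.05 and 0.06 and not called, that at 2 h was -0.10 and called (limma adjusted p 0.01), and Il10rb was lower than at 0 h after 2 h of LPS by 0.21 in LysM-Cre (a log2 difference of -0.21) and by 0.36 in the FosKO-labelled libraries (-0.36). No interaction was called for Il10rb on the deposited values (limma adjusted p at least 0.188), and 95% intervals of the 3 interaction values ran from -0.16 to 0.09.

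Counted over the members, 1 of 3 was called lower and 1 of 3 higher in the FosKO-labelled libraries at 0.5 h (Il10 and Il10rb), beside 19.7% and 21.2% of all tested genes. At 0 h 1 of 3 was called higher (Il10rb, 19.5% of all genes) and none lower (15.9%). At 1 h Il10 alone was called, lower (15.9%), and at 2 h Il10 was called lower (20.3%) and Il10ra higher (24.4%).

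**Figure D3:**
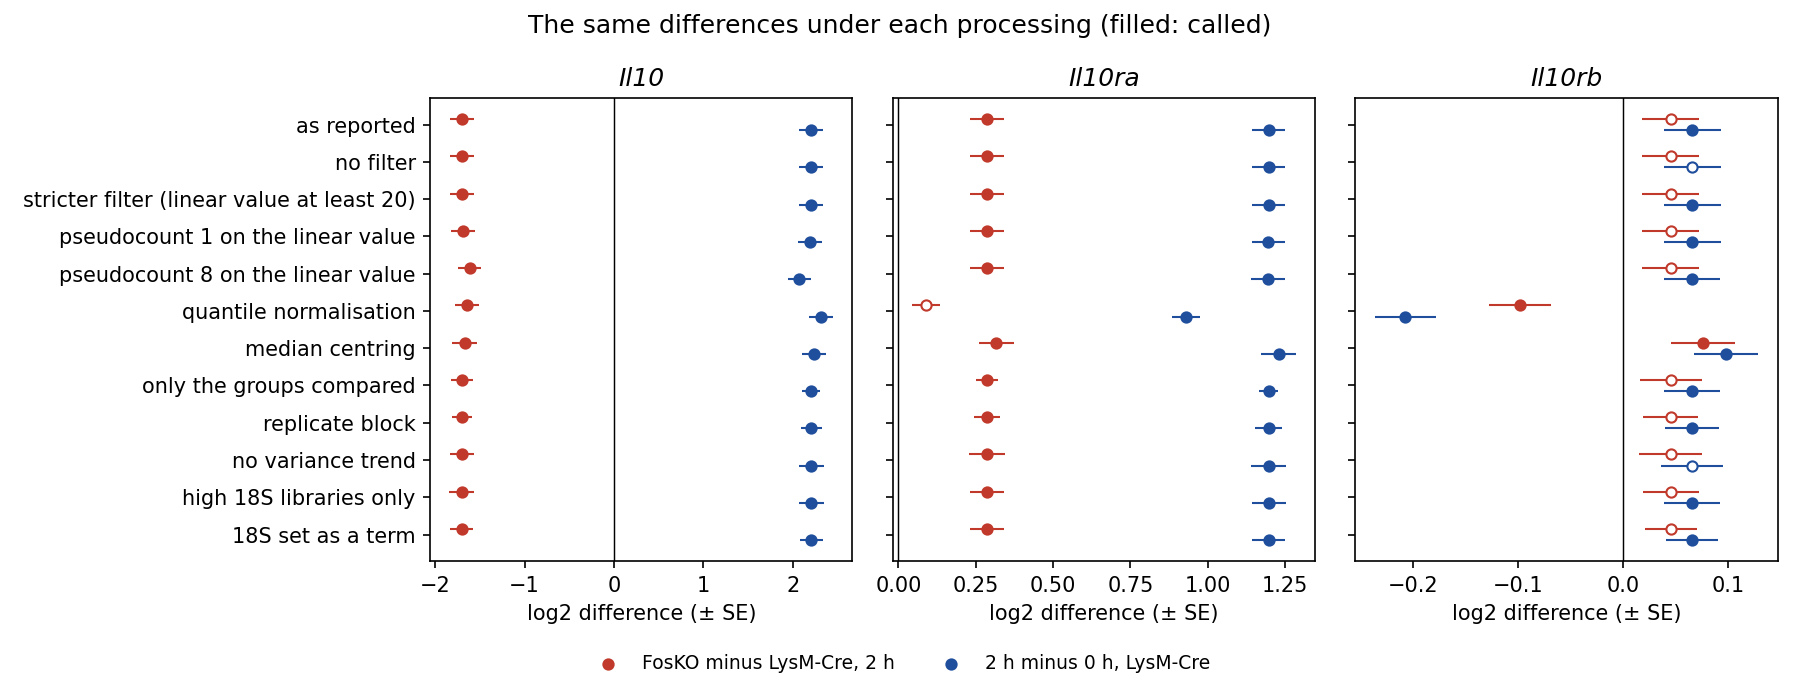
Log2 differences (± SE) of the FosKO-labelled libraries from LysM-Cre at 2 h LPS (red) and of 2 h LPS from 0 h in LysM-Cre (blue), under the processing reported and under each alternative on the vertical axis, with horizontal scales that differ between genes. Filled points were called. Il10 stays near -1.70 and 2.21 throughout, the genotype difference of Il10ra is 0.09 after quantile normalisation, and both values of Il10rb turn negative there.

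The genes whose values ran most like those of each member over the 24 libraries are given as a description. The 24 points share their genotypes and LPS times, so they are not independent, and no p is given. For Il10, the highest Pearson correlations were with ENSMUSG00000111116, which a gene table of the same identifiers names Gm48065 (r = 0.89), the kinase gene Map4k5 (0.88), the microRNA host gene Mir22hg (0.86), Cks2 (0.85) and Brpf1 (0.85). For Il10ra they were Cited2 (0.99), the chemokine receptor-like gene Ccrl2 (0.99), Ptgs2 (0.98), the gene of the inducible cyclooxygenase, the cytokine gene Il1b (0.98) and the interferon regulatory factor Irf1 (0.98). For Il10rb they were Ensa (0.89), the stress transcription factor Atf4 (0.88), Pira2 (0.86), Vmp1 (0.86) and Rnf149 (0.86). Between the members r was 0.61 for Il10 with Il10ra, 0.36 for Il10ra with Il10rb and -0.06 for Il10 with Il10rb.

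Of 8 genes of the signalling machinery below the receptor, all tested, 5 were called higher and 1 lower in the FosKO-labelled libraries at 2 h (median 0.25, against 0.00 over all tested genes), beside 24.4% and 20.3% of all genes. At 0 h the numbers were the same (median 0.14), beside 19.5% and 15.9% of all genes. At 2 h Socs1, an inhibitor of JAK kinases, was higher by 0.85 (limma adjusted p 1.85e-05), while Pias3, an inhibitor of STAT3, differed by -0.18 (limma adjusted p 0.0385), a call that was lost under several alternatives. Stat3, Tyk2 and Jak1, which are named for their part in the pathway after their values were seen, were higher by 0.56, 0.37 and 0.14, with Jak1 at -0.05 and not called after quantile normalisation. Socs3, the inhibitor that STAT3 induces, differed by 0.12 and was not called.

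Among 15 genes that IL-10 is known to induce in macrophages, 11 were called higher and 1 lower in the FosKO-labelled libraries at 0 h (median 0.26), beside 19.5% and 15.9% of all genes. At 2 h 7 were called higher and 5 lower (median 0.19), beside 24.4% and 20.3%. The counts and medians of this list include Slamf1, which passed the filter on low values only through the FosKO-labelled libraries at 2 h. Its mean was 2.50 there, 2.21 in LysM-Cre at 2 h and 1.88 to 2.12 in the other groups. The filter thus favoured a higher value under the FosKO label, and nothing is drawn from its comparison at 2 h. At 0 h Il21r, a cytokine receptor gene, was higher by 0.97 and the Fc receptor gene Fcgr1 by 0.65, and Tnip3, an inhibitor of NF-kB signalling, was lower (-0.43). At 2 h Il21r was higher by 1.39 and Arid5a, which encodes an RNA-binding protein, by 1.13. Ddit4, an inhibitor of mTOR signalling, and Bcl3, a nuclear partner of NF-kB, were lower (-0.45 and -0.40). Their LPS responses differed between genotypes as well, by -0.83 for Ddit4, -0.78 for Bcl3, 0.42 for Il21r and 0.62 for Arid5a at 2 h, among 4 genes of the list called higher and 5 lower in that comparison (15% of all genes).

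Of 18 genes of cytokines and mediators that IL-10 is known to restrain, 17 were tested. One of them, Il12a, passed the filter on low values only through its libraries at 2 h. Its means there were 3.88 in LysM-Cre and 4.27 in the FosKO-labelled libraries, against 2.02 to 2.24 at the earlier times. The counts and medians of this list include it. At 0 h, 10 were called higher in the FosKO-labelled libraries and the other 7 were not called (median 0.30), while 19.5% of all genes were called higher and 15.9% lower. Ccl5, a chemokine gene, was higher by 1.96 (limma adjusted p 2.63e-07) and Nos2, the inducible nitric oxide synthase, by 1.92 (limma adjusted p 2.3e-05). At 2 h, 14 were called higher and 1 lower (median 0.57), beside 24.4% and 20.3% of all genes. Il6 was higher by 1.41 (limma adjusted p 5.54e-09) and Il12b, a subunit of IL-12 and IL-23, by 1.39 (limma adjusted p 2.86e-09), while Csf2, the gene of GM-CSF, was lower (-1.31, limma adjusted p 5.9e-08). Before LPS Il6 had differed by 0.12 and Csf2 by 0.01, neither of them called.

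Their levels followed distinct courses. Il6 stood at a mean of 4.83 in LysM-Cre and 4.94 in the FosKO-labelled libraries at 0 h and at 9.72 and 11.13 at 2 h. Csf2 stood at 3.82 and 3.83 at 0 h and at 6.51 and 5.20 at 2 h, so it was lower beside Il10 while most of its list was higher. The LPS response at 2 h differed between genotypes by 1.29 for Il6, 1.05 for Il12b and -1.32 for Csf2, among 6 genes of the list called higher and 2 lower (15% of all genes called in either direction).

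Of the 13 kinases, phosphatases and receptors that act between LPS and Il10, 5 were called higher and 2 lower at 2 h in the FosKO-labelled libraries (median 0.02), beside 24.4% and 20.3% of all genes. Tlr4, the LPS receptor, was higher by 0.49 and Map3k8, which encodes the kinase TPL-2, by 0.27. Dusp1, a MAP kinase phosphatase, and Mapk14, the p38 alpha kinase, were lower (-0.27 and -0.11). At 0 h Mapkapk3 was higher by 0.46 and Map3k8 by 0.31, and Rps6ka5, which encodes the kinase MSK1, and Mapk3, the ERK1 gene, were lower (-0.38 and -0.09).

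Of 26 genes of transcription factors and chromatin proteins reported at the Il10 promoter, 11 were called higher and 6 lower at 2 h (median 0.11), beside 24.4% and 20.3% of all genes. The numbers were 11 and 6 at 0 h as well, beside 19.5% and 15.9%. The share called lower was thus near that of all genes at 2 h. Egr1, an immediate early factor, was higher by 0.97 at 2 h and Jun, an AP-1 subunit that pairs with FOS proteins, by 0.80. Ahr, the aryl hydrocarbon receptor, and Irf4 were lower (-1.09 and -0.98). At 0 h Cebpb was higher by 0.40, while Fosl1, another FOS family member, and Ahr were lower (-0.90 and -0.78). Maf, a factor needed for Il10 in several cell types and named here after its value was seen, was higher by 0.39 at 2 h. Ahr stood at 6.90, 6.99, 7.56 and 8.43 in LysM-Cre over the 4 times and at 6.12, 6.07, 6.55 and 7.35 in the FosKO-labelled libraries.

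Other chains of the class II cytokine receptor family, to which both IL-10 receptor chains belong, were called in either direction. Of 10 such genes 6 were tested, and at 2 h 2 were called higher and 3 lower in the FosKO-labelled libraries (median -0.13), beside 24.4% and 20.3% of all genes. Il20rb was higher by 0.59 and F3, the tissue factor gene, by 0.58. Ifnar1 and Ifngr2, which encode interferon receptor chains, were lower (-0.40 and -0.23). Of the IL-10 family cytokines Il19 alone was tested. It passed the filter on low values only through its libraries at 2 h, where its mean was 4.01 in LysM-Cre and 4.42 in the FosKO-labelled libraries. At the earlier times its group means lay between 1.98 and 2.18, so its change with LPS is given as these levels only. At 2 h it was higher by 0.41 in the FosKO-labelled libraries (limma adjusted p 0.00934), a call that did not survive leaving out replicate 1 of LysM-Cre (0.24) or replicate 3 of FosKO (0.29) at that time.

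The chromosomal neighbours of the members were also examined. Il19 lies 79.7 kb before Il10, and Mapkapk2, the gene of the kinase MK2, lies 28.7 kb after it. At 2 h the FosKO-labelled libraries differed from LysM-Cre by 0.18 for Mapkapk2, which became -0.08 and was not called after quantile normalisation, and by -0.39 for Dyrk3, the next gene on that side. Ifnar2, which ends 0.575 kb before Il10rb, rose by 0.59 in LysM-Cre and 0.42 in the FosKO-labelled libraries after 2 h of LPS, and differed between genotypes by -0.21 at that time. Gm21970, the locus that overlaps both, was not called in any comparison between the genotypes (0.11, 0.02, 0.16 and 0.00 at 0, 0.5, 1 and 2 h), and Gm20612 within Il10ra had group means of 2.02 to 2.35.

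**Figure D4:**
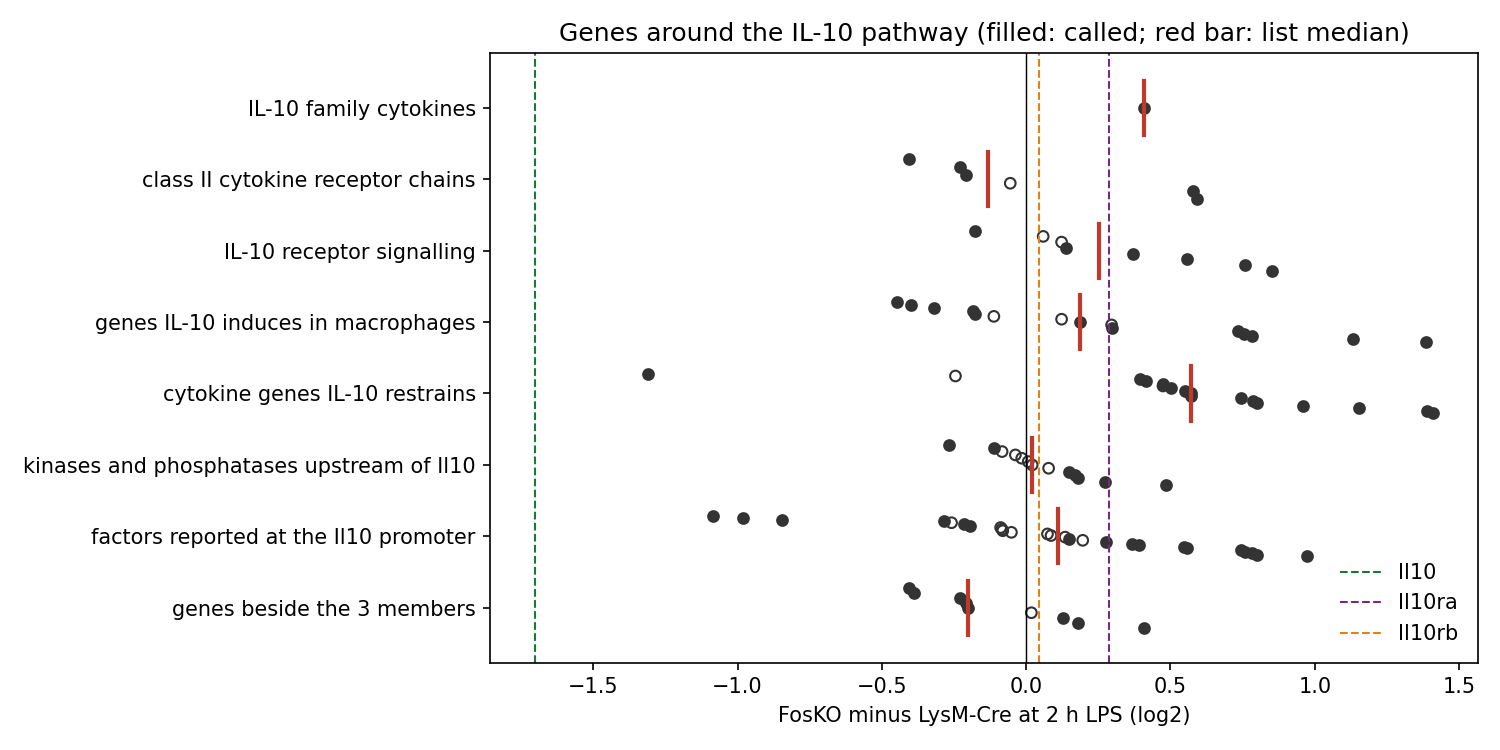
Log2 difference of the FosKO-labelled libraries from LysM-Cre at 2 h LPS (horizontal axis) for the tested genes of each list (rows), with filled points for called genes, open points for the others and a red bar for the list median. Dashed lines mark Il10 (-1.70), Il10ra (0.29) and Il10rb (0.05), and every gene shown lies to the right of Il10.

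Cells other than macrophages can make IL-10, so their markers are given. Among 6 B cell markers Cd79b alone was tested, and Pax5 lay between 0.17 and 0.49. The summed level of the list was 5.52 to 5.77 in LysM-Cre and 5.16 to 5.59 in the FosKO-labelled libraries. Among T cell markers Cd3d, Cd3e and Cd3g lay below 0 in all libraries, and the sum, carried by Cd4 and Lck, was 7.71 to 8.09 in LysM-Cre and 8.10 to 8.51 in the FosKO-labelled libraries. The sums were 5.11 to 6.98 and 5.09 to 6.53 for dendritic cell markers, 5.69 to 6.70 and 5.15 to 5.83 for neutrophil and progenitor markers, with Ly6g and Elane near the minimum of the table, and 4.50 to 5.34 and 4.18 to 4.94 for mast cell markers. Of the tested markers, some were called lower in the FosKO-labelled libraries beside Il10. Among all tested genes 15.9%, 19.7%, 15.9% and 20.3% were called lower at the 4 times in turn, and 19.5%, 21.2%, 18% and 24.4% higher. Cd79b differed by -0.38, -0.29 and -0.26 at 0.5, 1 and 2 h, S100a9 by -0.81, -0.65, -1.04 and -1.07 at the 4 times, S100a8 by -0.47, -0.47 and -0.60 at 0, 1 and 2 h, and Kit by -0.43, -0.53 and -0.53 at 0, 0.5 and 1 h. Of the 3 dendritic cell markers tested, Zbtb46 was called lower at 2 h (-0.96) and Xcr1 higher at 1 h (0.42), with no other call between the genotypes. Of the T cell markers 2 were tested, and both were called higher at 0 h and 1 of them at each later time. The part of these lists in the Il10 difference was not tested. In these bulk libraries a lower share of cells that express Il10 and less Il10 RNA in each cell cannot be told apart.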

How the data were processed

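RNA from 24 BMDM samples was made by the authors into TruSeq libraries and sequenced from single ends, strand-specifically. Per the labels, reads were mapped and counted with STAR 2.5.2a and RSEM 1.2.31 on GRCm38 and normalised with DESeq2 1.16.1. The values the authors deposited are log2 values, 1 per gene and library, from -2.22 to 19.39. They resemble a regularised log, which would understate differences in genes with few reads. The study's methods give only a typical read yield. The depth of each library is unknown, so no counting interval was given. Genes were tested with limma 3.58.1 in R 4.3.3 (lmFit, eBayes with trend) on 8 group means of all 24 libraries with 16 residual degrees of freedom, in 21 comparisons, 4 of them added after values were seen. P-values were adjusted by Benjamini-Hochberg over 13901 genes. The fit was tested on simulated data. With 3 libraries against 3, no exact two-sided permutation p can fall below 0.1, so none was used. The members and gene lists were chosen with earlier results of these data known. Alternatives were other filters, pseudocounts of 1 and 8, quantile normalisation, median centring, fewer groups, a replicate block, no variance trend, the 18S sets, and each replicate left out. From each list were named, among called genes, at most 2 rises and 2 falls of largest size at 2 h, and for 4 lists at 0 h, with 5 most correlated genes per member. Some genes that this rule names are not reported here. Motif matches in promoters of the members were not made here.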

Additional observations from a re-analysis of the deposited data

Results flagged for a closer look

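Of the values of the 3 genes, 4 stood out because the change with LPS differed between the genotypes by a direct test in limma. For Il10 the response in the FosKO-labelled libraries minus that in LysM-Cre was -1.11 at 1 h and -1.44 at 2 h, and the step from 0.5 to 2 h differed by -0.95. For Il10ra the step from 0.5 to 2 h differed by 0.28, in the opposite direction to Il10. The last 2 comparisons were chosen after the values had been seen.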

How the results depend on the processing

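Of 21 results for each gene, 16 of Il10, 16 of Il10ra and 6 of Il10rb kept their side of the threshold under all 11 alternatives and with each replicate left out. Of these, 1, 3 and 4 were differences near zero that were not called and took either sign. The genotype differences of Il10 at 0.5, 1 and 2 h were called throughout, from -0.75 to -0.71, from -1.36 to -1.31 and from -1.70 to -1.62 under the alternatives. The depth of each library is unknown and limits what can be said of genes with few reads. The cause of the changes below was not tested.

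Quantile normalisation changed 15 results of Il10rb and 3 of Il10ra. Il10rb then gave genotype differences of 0.050, 0.057 and -0.098 at 0, 0.5 and 2 h, LPS changes of -0.057 at 1 h and -0.21 at 2 h in LysM-Cre and of -0.15 and -0.36 in the FosKO-labelled libraries, steps of -0.013 (0.5 to 1 h), -0.15 (1 to 2 h) and -0.16 (0.5 to 2 h) in LysM-Cre and of -0.11, -0.21 and -0.32 in the FosKO-labelled libraries, and differences between genotypes of -0.15 in the response at 2 h and -0.15 in the step from 0.5 to 2 h. Il10ra gave 0.089 for the genotypes at 2 h, -0.032 for the step from 1 to 2 h in the FosKO-labelled libraries, and 0.17 for the difference in the step from 0.5 to 2 h. Between genotypes at 2 h, Mapkapk2 became -0.078 and Jak1 -0.047. Of the gene list values examined under quantile normalisation, 86 were graded the same, 17 moved, 1 weaker and 2 reversed. In the high 18S libraries alone 94 were graded the same, 11 moved and 1 weaker. These values pool counts of called genes in each list with differences of single genes. All values graded moved were list counts, 17 under quantile normalisation and 11 in the high 18S libraries alone. Those graded weaker or reversed were single genes. Some list counts thus depend on the processing. The list counts and medians given above are those of the deposited values.

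In the high 18S libraries alone the calls were lost for Il10 from 0.5 to 1 h in LysM-Cre (0.43) and from 1 to 2 h in the FosKO-labelled libraries (-0.36), for its difference in response at 1 h (-1.06), for the Il10ra difference in the step from 0.5 to 2 h (0.26), and for Il10rb in LysM-Cre at 1 h against 0 h (0.042) and 0.5 h (0.036). With the 18S set as a term, Il10rb in LysM-Cre was 0.070 at 1 h, not called, and 0.067 from 0.5 to 2 h, called. Median centring called Il10rb at 2 h between genotypes (0.076) and from 0.5 to 2 h in LysM-Cre (0.094). Its rise at 2 h in LysM-Cre (0.066) was lost with no filter and with no variance trend (0.066 in both), and its step from 0.5 to 1 h (0.087) with only the groups compared, which in turn called the Il10ra difference in response at 2 h (0.18).

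With each replicate left out, results that changed their call ranged, for Il10, from 0.35 to 0.50 (0.5 to 1 h, LysM-Cre), from -0.54 to -0.30 (1 to 2 h, FosKO), from 0.32 to 0.45 (0.5 to 2 h, LysM-Cre) and from -0.77 to -0.51 (difference in the step from 0.5 to 1 h), and for Il10rb from 0.040 to 0.082 (2 h, LysM-Cre) and from 0.070 to 0.116 (0.5 to 1 h, LysM-Cre).

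A replicate block called the Il10ra difference between genotypes at 0 h (0.11, limma adjusted p 0.0497) and changed no other call of the 3 genes. Same-numbered libraries correlated over 0.1 in every pair, each best with its own number, between 0 and 0.5 h in FosKO (0.13 to 0.27) and in no other pair of groups compared. In LysM-Cre each library at 1 and 2 h also correlated best with its own number at 0 h, at 0.02 to 0.09. In the other pairs of groups within a genotype 2 of 3 libraries did. As those pairs did not pass 0.1 throughout, the numbers were not taken as a pairing, and the fits treat libraries of different times as independent. The replicate block shared its numbers between the genotypes, so it could not test a pairing within a genotype. Such a pairing was not tested and is not excluded.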
